A study of Mus musculus with 16 samples.

Results

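Hpgd encodes hydroxyprostaglandin dehydrogenase, the enzyme that starts the breakdown of prostaglandin E2, and it was described here together with the other genes that carry or break down prostaglandins. The group was chosen by gene symbol and holds 7 of the 19540 genes in the table: Hpgd, the transporters Slco2a1 and Abcc4, the reductases Ptgr1, Ptgr2 and Zadh2, and the carbonyl reductase Cbr1. The libraries came from regulatory T cells (Treg) and from conventional T cells (Tconv) sorted from the visceral adipose tissue (VAT) of C57BL/6JRcc mice, all 12 weeks old. The titles gave 4 Treg KO, 3 Treg WT, 5 Tconv KO and 4 Tconv WT libraries. KO mice carry a floxed Hpgd allele (Hpgd fl) and Foxp3-YFP-Cre, a Cre recombinase active in cells that express the Treg factor Foxp3, so Tconv of these mice are not the targeted cells. The line label was the same in all 16 libraries, controls included, so genotype rests on the titles, and the sources used here do not say which of these alleles the WT mice carry. GEO's design text names 5 deleted and 4 WT animals, and nothing ties a library to an animal, so p-values measure the spread between libraries.

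Prostaglandins are taken up from outside the cell by carriers such as Slco2a1 and are exported by pumps such as Abcc4. Inside the cell Hpgd oxidises prostaglandin E2 to a keto form that no longer activates the prostaglandin receptors well, and reductases such as Ptgr1, Ptgr2 and Zadh2 reduce the keto form further. Keto-prostaglandins can act on PPAR-gamma, the nuclear receptor for which VAT Treg are known, and Cbr1 can convert prostaglandins of the E type into the F type.

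Values are normalised read counts with 1 added, so a gene without reads stands at 1. Libraries held 3.39 to 9.26 M reads, apart from Tconv KO 3 with 56.7 M, and 3 reads were worth 1.38 in Tconv KO 3 and 3.34 to 7.09 in the others. The 4 matched T cell markers (Cd3e, Cd3d, Cd3g and Cd4) summed to 12832 to 19957 in all 16 libraries, and the 5 Treg markers to 22321 to 29706 in Treg and 4988 to 6766 in Tconv. Tconv WT 1 held neutrophil markers at a sum of 14631 and Tconv WT 3 red cell and platelet markers at 37052, against at most 90.4 and 499 in the other libraries. Macrophage markers reached 1060 in Tconv WT 1, the next highest being 199 in Tconv KO 2. Dendritic cell markers reached 322, B cell markers 156, adipocyte markers 137 and stromal markers 82.2 at most. In bulk samples such as these, fewer cells of a type and less RNA per cell cannot be told apart.

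The start regions of Hpgd and Slco2a1 are shown because these 2 genes encode the first enzyme of the breakdown and its uptake carrier, and because both hold a TATA motif and a GC box motif. Each run has 250 bases before and 30 bases after the RefSeq start (GRCm38.p6), read 5′ to 3′ on the strand of the gene. Capitals mark TATAAA and the GC box GGGCGG or its reverse complement.
Hpgd, chr8:56294302-56294581, plus strand: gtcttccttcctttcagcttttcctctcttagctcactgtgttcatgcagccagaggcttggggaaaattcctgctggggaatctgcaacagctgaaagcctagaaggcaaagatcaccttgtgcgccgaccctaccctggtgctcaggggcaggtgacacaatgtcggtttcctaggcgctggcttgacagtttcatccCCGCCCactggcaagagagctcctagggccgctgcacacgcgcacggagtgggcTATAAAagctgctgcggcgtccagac
Slco2a1, chr9:103008237-103008516, plus strand: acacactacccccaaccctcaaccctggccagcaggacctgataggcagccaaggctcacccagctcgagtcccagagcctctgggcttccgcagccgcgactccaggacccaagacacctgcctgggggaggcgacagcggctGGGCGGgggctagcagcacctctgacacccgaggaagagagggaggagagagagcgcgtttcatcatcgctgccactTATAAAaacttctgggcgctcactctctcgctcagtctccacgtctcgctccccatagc
The TATAAA of Slco2a1 begins 29 bases before its RefSeq start, but far downstream of its GENCODE gene start at 102988712. That of Hpgd begins after its RefSeq start, at position 5 counted from it. It lies 29 bases before the GENCODE start of Hpgd, which is downstream of the RefSeq one. Neither annotation alone places both motifs 29 bases before the start. Searched on both strands of 32851 mouse promoter windows of 300 bases, TATAAA was in 13.6% and GGGCGG in 35.7%. The forkhead letters TGTTTAC (3.65% of windows), the antioxidant letters TGACNNNGC (12.4%) and the cAMP letters TGACGTCA (1.79%) matched neither window. Among the members, 7 RefSeq windows of 6 genes were counted, and Zadh2 was left out of this count. Of these 7 windows, 2 held the antioxidant letters, both of Abcc4. Such matches describe letters, not binding.

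Hpgd had reads in all 3 Treg WT libraries, in 3 of 4 Treg KO libraries and in 1 of 9 Tconv libraries. The gene spans chromosome 8 from 56294585 to 56321043 (mm10, plus strand, 7 exons). It stood at 3.41, 2.54, 2.42 and 1.00 in Treg KO, against 73.1, 56.0 and 4.31 in Treg WT, where 4.31 is the library labelled Treg WT 3. In Tconv KO it stood at 6.20 in Tconv KO 3 and at 1.00 in the other 4, and in Tconv WT at 1.00 in all 4. Treg WT 1, Treg WT 2 and Tconv KO 3 were thus well above the value of 3 reads in their own library, with 79, 63 and 41 reads, and only Treg WT 1 and Treg WT 2 stood above 10. The library labelled Treg WT 3, with 3 reads, was at the level of the Treg KO libraries.

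Pooled over libraries, Treg KO gave 4 Hpgd reads in 26.3 M and Treg WT 145 in 24.9 M. Per normalised library that is a ratio of 0.0270, with an exact 95% interval of 0.00727 to 0.0707 that covers counting error only. Without the library labelled Treg WT 3 the ratio was 0.0196 (0.00528 to 0.0514). The groups did not overlap, as for 6.01% of the genes tested, but the highest Treg KO library had 2 reads. The library labelled Treg WT 3 had 3. Group means were 2.34 ± 0.998 in Treg KO (SD, n = 4) and 44.5 ± 35.8 in Treg WT (SD, n = 3), and the exact 2-sided permutation test of log2 values gave p = 0.0571, the smallest that 35 splits allow. The deposited values are per gene, and the sources used here do not name the deleted exon, so reads from exons left in place count in full.

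Between the cell types, the Hpgd groups lay apart in WT mice, as for 12% of the genes tested, and overlapped in KO mice. The separation in WT rested on the library labelled Treg WT 3, with 3 reads at 4.31, against no reads in Tconv WT. The value of 3 reads was higher than that in Tconv WT 2 (7.09) and Tconv WT 4 (4.38). Treg WT stood at least 9.08-fold above Tconv WT, measured against the mean value of 3 reads per Tconv WT library, or 13.2-fold without the library labelled Treg WT 3. The exact permutation test again gave its smallest p, 0.0571. Hpgd was at 10 or more in only 2 libraries and did not enter the fit over all genes; in limma without that filter its Treg WT against Tconv WT difference was 3.82 log2 (SE 0.78, adjusted p = 0.00879). In the same fit Hpgd did not pass between Treg KO and Treg WT (−3.13, SE 0.78, adjusted p = 0.546), nor did the difference between the Treg and the Tconv effect (−3.50, SE 1.03, adjusted p = 0.947). Between Treg KO and Tconv KO it was 0.31 log2 (exact permutation p = 0.492). The 41 reads of Tconv KO 3 came from the deepest library, and at its level the other 8 Tconv libraries would have given 2.56 to 6.67 reads each. None gave any, and in 7 of these 8 the value of 3 reads lay below the level of Tconv KO 3.

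**Figure D1:**
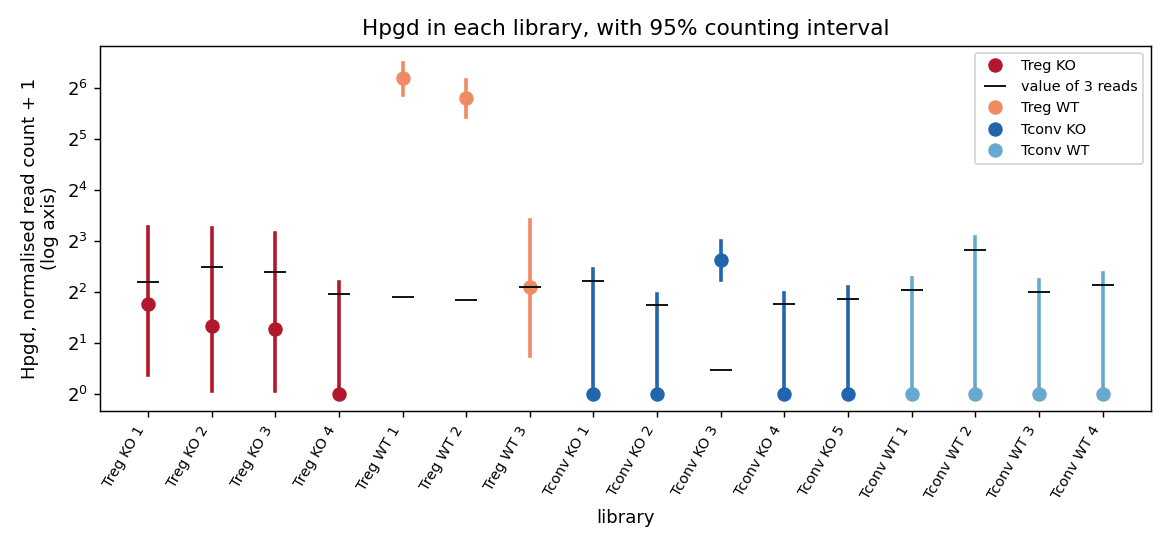
Hpgd in each of the 16 libraries, as normalised read count plus 1 on a log axis. Points are the deposited values, vertical lines exact 95% counting intervals and short horizontal marks the value of 3 reads; Treg WT 1 at 73.1 and Treg WT 2 at 56.0 stand apart from all others, the next highest being Tconv KO 3 at 6.20.

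The other 6 genes passed the filter of 10 or more in at least 3 libraries, Ptgr1 with only 4 such libraries and the others with 14 or more. None of them passed between Treg KO and Treg WT: 0 of 6 in limma, where 0.021% of the 14319 genes tested did, and 0 of 6 had an unadjusted p under 0.05 or passed in voom. Their median log2 difference between Treg KO and Treg WT was 0.54, beside 0.08 over all genes tested, with 4 positive and 2 negative, and none had groups apart, as 6.01% of all genes did. Each Treg KO library had reads for more genes (15135 to 16041) than each Treg WT library (14216 to 14874), and the part of this in the members' values was not tested. In Tconv, 0 of 6 differed between KO and WT (0% of all genes passed; 0 of 6 had an unadjusted p under 0.05 or passed in voom), with a median of 0.01 beside 0.02 over all genes, and none had groups apart (1.67% of all genes). The difference between the Treg and the Tconv effect passed for 0 of 6 in limma and in voom (0% of all genes), and 0 of 6 had an unadjusted p under 0.05. These intervals are wide and do not show that the genes were unaffected.

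Slco2a1, the prostaglandin uptake carrier, was read in all 16 libraries at a low level. It spans chromosome 9 from 102988712 to 103096002 (plus strand). It stood at 15.5, 16.4, 12.3 and 36.0 in Treg KO, against 9.22, 25.4 and 66.1 in Treg WT, the 66.1 being the library labelled Treg WT 3. In Tconv KO it stood at 50.9, 61.8, 80.3, 44.9 and 104, against 6.17, 35.5, 76.5 and 127 in Tconv WT. All 5 Tconv KO libraries lay above all 4 Treg KO libraries, while the WT groups spread widely and overlapped each other and both KO groups. The low Tconv WT value of 6.17 is Tconv WT 1, the library with neutrophil transcripts.

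In order of the means, Slco2a1 stood at 68.4 ± 24.1 in Tconv KO (SD, n = 5), 61.3 ± 52.5 in Tconv WT (n = 4), 33.6 ± 29.3 in Treg WT (n = 3) and 20.05 ± 10.8 in Treg KO (n = 4), and each neighbouring pair overlapped. The difference between Treg KO and Tconv KO was −1.77 log2 (SE 0.78, adjusted p = 0.219 in limma), so it did not pass. Between Treg WT and Tconv WT it was −0.61 (SE 0.89, adjusted p = 0.809), and between Treg KO and Treg WT −0.44 (95% interval −2.30 to 1.43). Endothelial cells also express Slco2a1, and the 5 endothelial markers summed to 162 to 544 in Treg and 247 to 1217 in Tconv. Pecam1, which lymphocytes express too, made up 71.0% to 97.7% of that sum in a library. Group means were 3.88 to 28.9 for Kdr, 13.5 to 42.1 for Vwf, 1.16 to 4.55 for Cdh5 and 1.00 to 3.74 for Emcn, and single libraries reached 76.3 for Kdr (Treg KO) and 88.9 for Vwf (Tconv WT). The part of such cells in the Slco2a1 values was not tested.

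Abcc4, a pump that exports prostaglandins and cyclic AMP, was read in all 16 libraries. It spans chromosome 14 from 118482692 to 118706219 (minus strand). It stood at 111, 211, 116 and 77.9 in Treg KO, against 117, 42.9 and 57.2 in Treg WT. In Tconv KO it stood at 124, 135, 398, 108 and 130, against 191, 98.4, 123 and 321 in Tconv WT. The lowest 2 values were both in Treg WT, the highest was the deep library Tconv KO 3, and all groups overlapped. Means were 129 ± 57.5 in Treg KO (SD, n = 4), 72.3 ± 39.3 in Treg WT (n = 3), 179 ± 123 in Tconv KO (n = 5) and 183 ± 99.7 in Tconv WT (n = 4).

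Abcc4 differed by −1.31 log2 between Treg WT and Tconv WT (SE 0.55) and by −0.37 between Treg KO and Tconv KO (SE 0.49). Neither passed in limma, at adjusted p = 0.228 and 0.774. Between Treg KO and Treg WT the difference was 0.86 (95% interval −0.30 to 2.01, adjusted p = 0.848). In each library the Abcc4 level per kb of exon was above that of Slco2a1, by 1.83 to 29.9 times in Treg and 2.65 to 78.0 times in Tconv. The highest of these ratios is again Tconv WT 1.

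Zadh2, a reductase of keto-prostaglandins known from mouse fat cells and also called Ptgr3, was lower in Treg than in Tconv. It spans chromosome 18 from 84088063 to 84097528 (plus strand, 3 exons). It stood at 128, 122, 50.6 and 129 in Treg KO, against 228, 271, 210, 218 and 207 in Tconv KO. In WT mice it stood at 93.2, 39.4 and 105 in Treg, against 276, 194, 225 and 169 in Tconv. All 7 Treg libraries lay below all 9 Tconv libraries, with 129 the highest in Treg and 169 the lowest in Tconv.

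Zadh2 means were 107 ± 38.1 in Treg KO (SD, n = 4), 79.1 ± 34.9 in Treg WT (n = 3), 227 ± 26.1 in Tconv KO (n = 5) and 216 ± 46.3 in Tconv WT (n = 4). Within one genotype the difference missed the threshold in limma: −1.53 log2 between Treg WT and Tconv WT (SE 0.44, adjusted p = 0.0532) and −1.16 between Treg KO and Tconv KO (SE 0.38, adjusted p = 0.0790). Averaged over both genotypes, a comparison added after the values were seen, it was −1.35 (SE 0.29, 95% interval −1.95 to −0.74), and it passed at adjusted p = 0.00353. It remained past the threshold in all 23 alternative settings of that comparison, among them the one that leaves out the Tconv libraries KO 3, WT 1 and WT 3, at −1.24 and adjusted p = 0.0296. Between KO and WT, Zadh2 did not pass: the difference was 0.46 in Treg (95% interval −0.45 to 1.37) and 0.09 in Tconv (−0.71 to 0.89), and the difference between those effects was 0.37 (−0.84 to 1.59, adjusted p = 0.983). Adipocyte markers, 4 in all, summed to 19.3 to 137 in Treg and 6.75 to 28.3 in Tconv, and the endothelial sum given above was also uneven between the cell types. Their part in the Zadh2 difference was not tested.

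Across the 6 genes, Zadh2 was the only one called between Treg and Tconv. Within WT 0 of 6 passed, where 4.18% of all genes did, and 2 of 6 had an unadjusted p under 0.05 (Zadh2 and Abcc4), beside 16.3% of all genes. Within KO 0 of 6 passed, where 6.81% did, and again 2 of 6 had such a p (Zadh2 and Slco2a1), beside 18.7% of all genes; voom called 0 in both. Over both genotypes 1 of 6 passed, and lower in Treg, where 11.8% of all genes passed and 5.15% were lower. Groups lay apart for 1 of 6 within WT (12% of all genes), 2 of 6 within KO (10.7%) and 1 of 6 over both (3.12%). The members' median was −0.95 within WT and −0.61 within KO, beside 0.00 and 0.04 over all genes, with 5 of 6 negative in each. The WT and KO comparisons share no libraries, but the direction of such small counts carries no test.

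**Figure D2:**
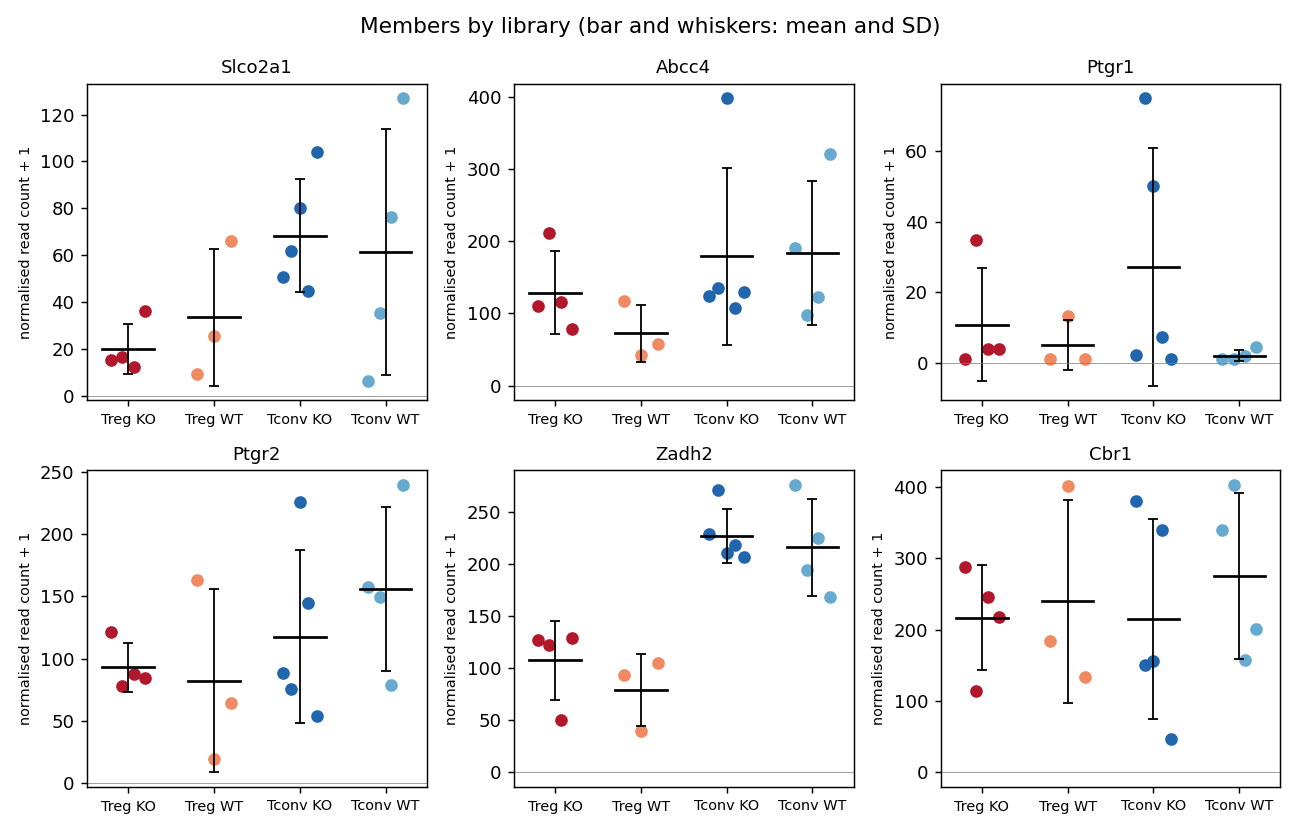
Normalised read count plus 1 of the 6 genes that passed the filter, by group, on linear axes. Each point is a library, the long bar the mean and the whiskers the SD; Zadh2 is the gene whose 7 Treg libraries (39.4 to 129) all lie below its 9 Tconv libraries (169 to 276).

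**Figure D3:**
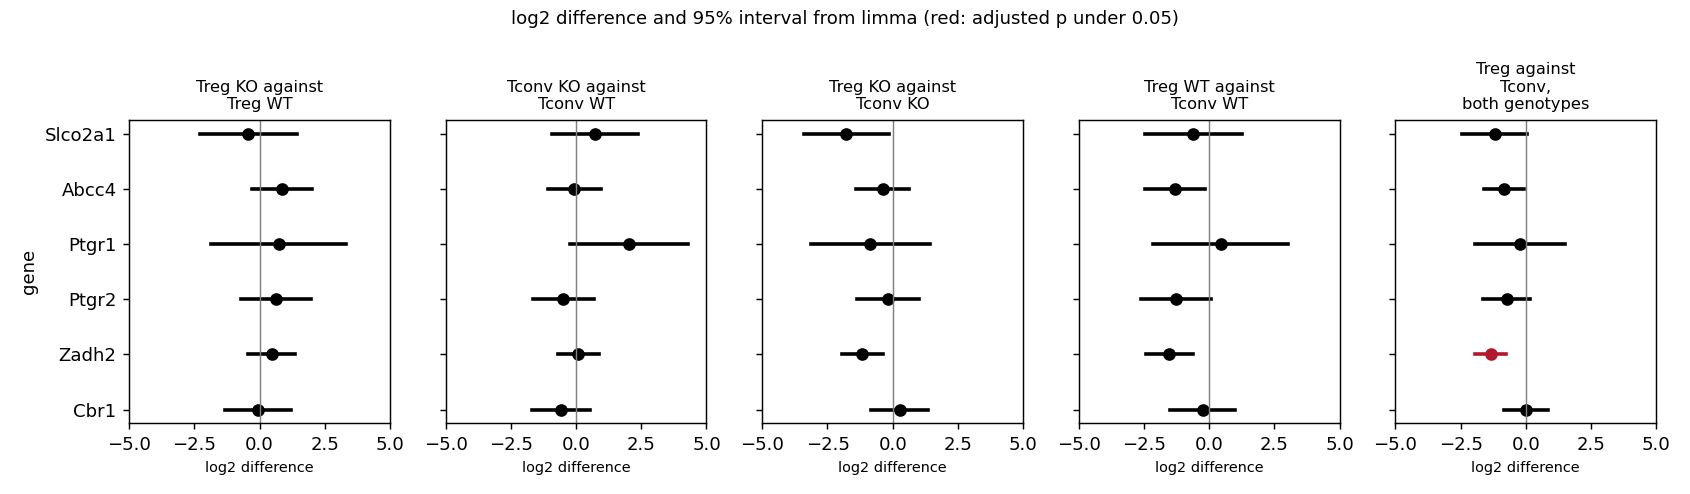
The log2 difference of each gene (point) with its 95% interval (line) in 5 comparisons, from limma. Red marks an adjusted p under 0.05, reached by Zadh2 alone at −1.35 in Treg against Tconv over both genotypes; the intervals of Ptgr1 are the widest.

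Ptgr2, a reductase whose main substrate is keto-prostaglandin E2, was read in all 16 libraries. It spans chromosome 12 from 84285232 to 84315832 (plus strand). It stood at 122, 77.8, 87.4 and 84.7 in Treg KO, against 163, 19.3 and 63.9 in Treg WT. In Tconv KO it stood at 88.6, 75.8, 226, 145 and 53.4, against 157, 149, 78.5 and 240 in Tconv WT. All groups overlapped, and the lowest value was Treg WT 2. Its difference was −1.28 log2 between Treg WT and Tconv WT (SE 0.64, adjusted p = 0.335) and −0.17 between Treg KO and Tconv KO (SE 0.57, adjusted p = 0.926). Exons of Gm47484, a non-coding RNA on the opposite strand, cover 32.0% of the exonic bases of Ptgr2. SMART-seq2 does not mark strand, so reads there cannot be told apart and the level of Ptgr2 is uncertain.

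Ptgr1, which reduces keto-prostaglandins and also inactivates leukotriene B4, was read in 10 of 16 libraries. It spans chromosome 4 from 58965439 to 58987119 (minus strand). It stood at 1.00, 34.8, 3.83 and 3.92 in Treg KO, against 1.00, 13.2 and 1.00 in Treg WT. In Tconv KO it stood at 2.22, 75.0, 50.2, 7.38 and 1.00, against 1.00, 1.00, 2.01 and 4.38 in Tconv WT. A few libraries carried it, with 95 reads in Tconv KO 2, 388 in Tconv KO 3, 22 in Treg KO 2 and 14 in Treg WT 2, while no other library had more than 8. The Tconv KO against Tconv WT difference was 2.03 log2 (SE 1.09, adjusted p = 0.931 in limma), and both groups held libraries without reads. The SD of Ptgr1 in Tconv KO was 8.95 times that of counting alone, and in Tconv WT 1.45 times.

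Cbr1, the carbonyl reductase, had the highest mean per exonic length of the 7 genes in each of the 4 groups and did not separate any groups. It spans chromosome 16 from 93605853 to 93610505 (plus strand). It stood at 288, 115, 246 and 218 in Treg KO, against 184, 401 and 133 in Treg WT. In Tconv KO it stood at 380, 151, 156, 340 and 47.2, against 340, 403, 157 and 200.3 in Tconv WT. Low and high libraries occurred in each group, and the spread in Tconv KO was 10.4 times that of counting alone. Its difference over both genotypes was 0.00 log2 between Treg and Tconv (95% interval −0.83 to 0.84), and −0.06 between Treg KO and Treg WT (−1.31 to 1.19). Gm5678, which is not in the table, shares 90.6% of bases with Cbr1 over 940 bases, so reads could have been split between the pair.

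Levels can be compared between genes only per length, here as normalised read count per kb of merged GENCODE exons. Over all libraries Cbr1 stood at 91.6 ± 43.5 (SD, n = 16), at percentile 73.7 of the genes tested, and Zadh2 at 46.8 ± 20.7, at percentile 57.5. Abcc4 followed at 22.9 ± 14.7 and Ptgr2 at 19.1 ± 10.3. Hpgd stood at 5.23 ± 12.9, Ptgr1 at 5.09 ± 9.46 and Slco2a1 at 3.47 ± 2.64, but the order of these 3 changed between groups. By group mean, Slco2a1 was above Hpgd in each group except Treg WT, and above Ptgr1 in both WT groups and below it in both KO groups. In Treg WT alone Hpgd reached 25.8 ± 21.3 (n = 3), between Zadh2 at 22.1 ± 9.85 and Cbr1 at 93.5 ± 55.7, and its percentile was 47.1. Merged exons hold every annotated isoform, 13545 bases for Slco2a1 against 1683 for Hpgd, so a gene read only from a short isoform is understated.

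**Figure D4:**
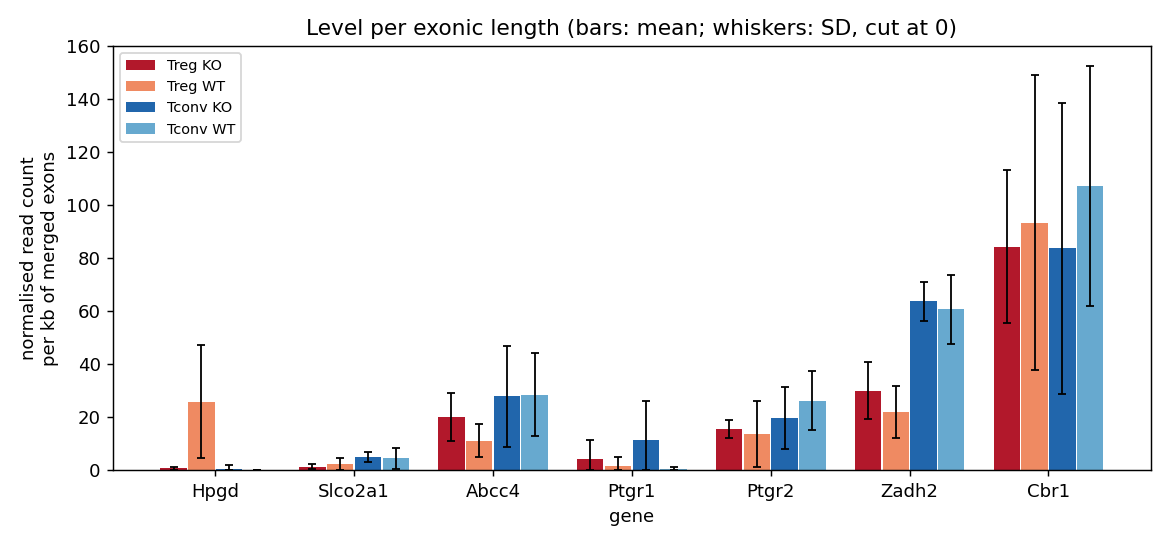
Normalised read count per kb of merged exons for the 7 genes, by group. Bars are means and whiskers the SD, cut at 0; Hpgd reaches 25.8 in Treg WT against 0.797 in Treg KO, and Zadh2 stands at 30.1 in Treg KO and 22.1 in Treg WT against 63.8 in Tconv KO and 60.7 in Tconv WT.

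Among the 3 keto-prostaglandin reductases, Zadh2 made up the largest share per kb in most libraries. Its share was 47.0% to 73.4% in Treg and 49.9% to 86.8% in Tconv, that of Ptgr2 16.05% to 51.3% and 10.4% to 45.2%, and that of Ptgr1 0% to 27.6% and 0% to 26.6%. The shares overlapped between the cell types. The sum of the 3 per kb was 19.3 to 62.0 in Treg and 67.1 to 121 in Tconv, which did not overlap. That sum was computed after the values were seen, is mostly Zadh2 and has no test.

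Among the 6 genes, 15 pairs were compared by Pearson's r of log2 values within the 7 Treg and within the 9 Tconv libraries, as a description. The pair of Abcc4 and Ptgr2 was the only one above 0.5 in both, at 0.67 in each, and 6 pairs had the same sign in both. Genes were also ranked by likeness in pattern to each member, skipping antigen receptor segments and genes with only an identifier. Over all 16 libraries, the gene so ranked as most like Zadh2 was Tnf, the tumour necrosis factor gene, at r = 0.93. Within Treg that r was 0.90 and within Tconv 0.24, and Tnf stood at 264 to 536 in Treg and 777 to 1166 in Tconv. Serpina3f followed at 0.93 (0.82 and 0.10). The closest genes were Cops5 (0.90) and Arl4c (0.84) for Slco2a1, Ccne2 (0.82) and Snrnp200 (0.80) for Abcc4, and Mnat1 (0.85) and Xpo5 (0.82) for Ptgr2. They were Olfr1513 (0.91) and Tmem121b (0.80) for Ptgr1, and Fundc2 (0.88) and Wsb2 (0.84) for Cbr1. All share the same libraries and depths, and each is the highest of 14318 comparisons.

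The surrounding pathway was read from 5 lists: prostanoid synthesis (9 of 12 genes tested), prostanoid receptors (5 of 9), related transporters (11 of 20), related reductases and dehydrogenases (13 of 19), and targets and regulators of the antioxidant factor NRF2 (15 of 16), which drives Ptgr1. Between KO and WT, 0 genes of any list passed in Treg and 0 in Tconv, in limma and in voom. At an unadjusted p under 0.05 there were 1 receptor, 1 reductase and 3 genes of the NRF2 list in Treg, and 1 gene of the NRF2 list in Tconv, where 6.22% of all genes in Treg and 5.45% in Tconv reached such a p. With lists of 5 to 15 genes, these counts are not read further. The smallest p in Treg was that of Nfe2l2, which encodes NRF2. It stood at 224, 182, 73.2 and 146 in Treg KO, against 280, 422 and 509 in Treg WT, a difference of −1.43 log2 (SE 0.37, adjusted p = 0.607 in limma). The groups lay apart, as they did for 6.01% of all genes. In Tconv, Nfe2l2 stood at 509 ± 83.5 in KO (SD, n = 5) and 442 ± 131 in WT (SD, n = 4).

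Of the transporters related to Slco2a1 and Abcc4, Slco2b1 was the one called in both genotypes. Slco2b1, an organic anion carrier of the same family as Slco2a1, stood at 1514, 738, 2201 and 1997 in Treg KO, while none of the 5 Tconv KO libraries had a read. That is at least 491-fold higher in Treg KO, against the mean value of 3 reads per Tconv KO library (adjusted p = 6.06e-08 in limma). In WT mice it stood at 1316, 314 and 1508 in Treg, against 11.1 in Tconv WT 2 and 1.00 in the other 3 Tconv libraries (log2 difference 8.09, SE 0.78, adjusted p = 3.92e-06). Slco2a1 and Slco2b1 thus stood in opposite order in the KO cell types, though for Slco2a1 the difference did not pass. Abcc3, a pump related to Abcc4, stood at 82.7 ± 34.9 in Treg KO (SD, n = 4) and 8.08 ± 10.5 in Tconv KO (SD, n = 5; adjusted p = 0.0525 in limma). Over both genotypes it passed (2.99 log2, SE 0.87, adjusted p = 0.0288), a call lost by voom, with the replicate block and without any 1 of Treg KO 2, 3 or 4, Tconv KO 2 or 5, Tconv WT 3 or 4, Treg WT 1 or the library labelled Treg WT 3 (adjusted p up to 0.114).

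**Figure D5:**
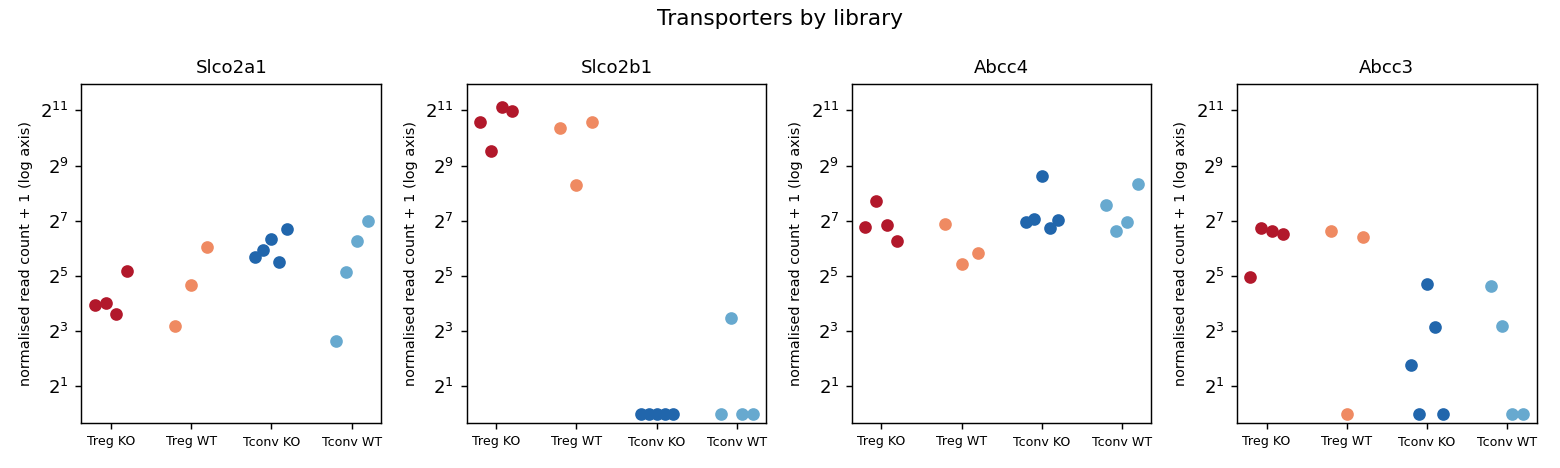
Slco2a1, Slco2b1, Abcc4 and Abcc3 as normalised read count plus 1 on a log axis, by group; each point is a library and 1 is the value without reads. Slco2b1 ranges from 314 to 2201 in Treg, against at most 11.1 in Tconv, while Slco2a1 and Abcc4 overlap between the WT cell types.

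Of the receptors, Ptger4, a receptor of prostaglandin E2, was lower in Treg WT than in Tconv WT, at 499.96 ± 58.5 (SD, n = 3) and 1104 ± 148 (SD, n = 4; −1.14 log2, SE 0.22, adjusted p = 0.00411). In KO mice it stood at 761 ± 114 in Treg and 1156 ± 220 in Tconv (−0.59, adjusted p = 0.0684). The prostacyclin receptor Ptgir was higher in Treg KO than in Tconv KO, at 381 ± 236 (SD, n = 4) and 58.0 ± 94.1 (SD, n = 5; 4.11 log2, SE 1.12, adjusted p = 0.0280 in limma). The KO groups overlapped, with Tconv KO 3 at 223 and Treg KO 2 at 107. In WT mice Ptgir stood at 371 ± 342 in Treg (SD, n = 3) and 143 ± 151 in Tconv (SD, n = 4). That WT difference was 1.95 log2 (SE 1.27) and did not pass (adjusted p = 0.497 in limma). The Ptgir call within KO was lost by voom and without any 1 of Treg KO 1, 3 or 4 or Tconv KO 1, 2 or 4 (adjusted p up to 0.109). That of Ptger4 within WT held in all 24 alternatives.

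Of the NRF2 list, the glutathione transferase Gstm1 was higher in Treg KO than in Tconv KO, at 217 ± 159 (SD, n = 4) and 7.40 ± 10.1 (SD, n = 5; 5.25 log2, SE 1.18, adjusted p = 0.00805 in limma). It was also higher in Treg WT than in Tconv WT (5.23, SE 1.34, adjusted p = 0.0294), a call lost by voom, when the fit held just these groups, and without any 1 of Tconv WT 2, 3 or 4, Treg WT 1 or the library labelled Treg WT 3 (adjusted p up to 0.220). The WT groups overlapped, with Gstm1 at 132 in Tconv WT 1, the library with neutrophil transcripts, and at 64.7 in Treg WT 2. Tconv WT 2, 3 and 4 stood at 1.00. Gstm1 belongs to a family of close copies among which reads may be split. Nfe2l2 was lower in Treg KO than in Tconv KO (−1.79, SE 0.33, adjusted p = 0.00147), in all 24 alternatives too. Between Treg WT and Tconv WT its difference was −0.11 (SE 0.37) and did not pass (adjusted p = 0.931 in limma).

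Within WT and within KO, 0 genes of the synthesis list and 0 of the reductase list passed in limma, with 1 and 3 at an unadjusted p under 0.05 in WT, 1 and 2 in KO, and 1 synthesis gene called by voom in KO. Of all genes, 16.3% in WT and 18.7% in KO had such a p. Over both genotypes 1 of 9 and 1 of 13 passed, shares near or below the 11.8% of all genes, both higher in Treg: Hpgds, the haematopoietic prostaglandin D synthase, at 2.07 log2 (SE 0.64, adjusted p = 0.0400), and Vat1, a reductase relative of Zadh2, at 1.32 (SE 0.40, adjusted p = 0.0367). Both calls were fragile. That of Hpgds held in 9 of 23 alternatives and was lost without any 1 library except Treg KO 1, Treg WT 2, Tconv KO 5 and Tconv WT 4 (adjusted p up to 0.209 over the alternatives). That of Vat1 held in 10 of 23, and among single libraries left out only for Treg KO 1, Treg WT 2, Tconv KO 3 and Tconv WT 3 (adjusted p up to 0.161 over the alternatives).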

How the data were processed

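Treg and Tconv RNA from 16 libraries was measured with SMART-seq2 from 10 ng of RNA, per the labels' protocols. The deposited table gives a never-negative signal for 19540 genes, which the authors made from gene read counts divided by a library size factor, plus 1, as the values show. Tools listed in the submitters' processing notes, without roles, are DESeq2, kallisto 0.44, Partek 6.6, CASAVA 1.8 and R 3.3.1, with build mm10. Whether counting used strand is not given in the sources used here. Steps between values gave the worth of 1 read, and 100% of values up to 1000 reads were whole within 0.1 of a read. Intervals and floors cover counting error only.

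Values were taken as log2 of the deposited value plus 1, a scale on which changes of low genes are understated. The 14319 genes with 3 or more libraries at 10 or above entered 1 limma 3.58.1 model (R 4.3.3) with a mean-variance trend over all 16 libraries. Adjusted p is Benjamini-Hochberg per comparison over all genes tested, 2-sided, with 0.05 as threshold. The model was run on simulated data. The genes changed there lay above the levels of Hpgd and Ptgr1, so that run does not cover such low genes. Voom on the recovered reads, the comparison over both genotypes and the fit without 3 Tconv libraries were added after seeing the data. Members and lists were chosen with earlier results of these data known. Named genes are the members, the 2 genes closest in pattern to each, and list genes that passed or had the smallest p. Abcc3 within KO, Ptger4 within KO, Nfe2l2 in Tconv and Nfe2l2 within WT were added after their values were seen. Positions are from GENCODE M21, promoters from RefSeq.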

Additional observations from a re-analysis of the deposited data

Results flagged for a closer look

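In 5 of 20 groups of 4 or 5 libraries, 1 library stood far from the others of its group. For normally distributed values chance gives about 1 in 20, which these values need not follow, so the count is a description. Hpgd stood at 6.20 in Tconv KO 3, the deepest library, and at 1.00, without reads, in the other 4 of that group, where any single library with reads would stand apart. Abcc4 stood at 398 in the same library, against 108 to 135 in the others. Slco2a1 stood at 36.0 in Treg KO 4, against 12.3 to 16.4, which barely met the criterion. Ptgr1 stood at 34.8 in Treg KO 2, against 1.00 to 3.92. Zadh2 stood at 50.6 in Treg KO 3, against 122 to 129, and was the one of these that lay on the low side.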

How the results depend on the processing

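In 174 of 178 alternatives the counts of members called stayed as reported, or the Hpgd difference did not reverse and its exact p stayed above 0.05. For Hpgd in Treg WT against Treg KO or Tconv WT that p could not fall lower, as its smallest value was 0.0571. Leaving out 1 library moved Hpgd to −4.34 to −2.44 log2 between Treg KO and Treg WT. Between Treg WT and Tconv WT it gave 3.12 to 5.02, and between Tconv KO and Tconv WT 0 to 0.46. Without a filter on low values Hpgd also passed, giving 1 within WT and 2 over both genotypes. That fit takes 1 spread per gene over all groups, smaller than the spread of Hpgd in Treg WT. Leaving out 1 library gave 0 to 1 within WT (1 without Treg KO 3, Zadh2 at adjusted p = 0.0308) and 0 to 1 within KO (1 without Treg WT 2, Zadh2 at 0.0430). Zadh2 over both genotypes ran from −1.47 to −1.13 over 23 alternatives (adjusted p = 0.00346 to 0.0296). Deviations from the group mean correlated weakly between libraries of the same replicate number, at −0.04 to 0.08. Between Treg and Tconv of one genotype, these values were 0.023 to 0.053 in KO and 0.024 to 0.079 in WT. Libraries of different numbers gave −0.041 to 0.024 and −0.073 to 0.048 there. Over all pairs of groups, different numbers gave −0.074 to 0.075. Whether the replicate number pairs libraries was thus not settled. With that number as a block, Cbr1 turned to −0.19 within KO and −0.21 over both genotypes, and no member's call changed. By voom, Abcc4 and Ptgr2 turned to 0.40 and 0.054 between Tconv KO and Tconv WT. With the Tconv libraries KO 3, WT 1 and WT 3 left out, Slco2a1 turned to −0.12 between Tconv KO and Tconv WT, Ptgr2 to 0.11 within KO and Cbr1 to −0.086 over both genotypes. None of these differences passed in any setting, and the cause was not tested.

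Leaving out single libraries turned the sign of these log2 differences, none of which passed. Between Treg KO and Treg WT the ranges were −1.12 to 0.24 for Slco2a1, −0.086 to 1.68 for Ptgr1, −0.16 to 1.35 for Ptgr2 and −0.41 to 0.39 for Cbr1. Between Tconv KO and Tconv WT they were −0.11 to 1.28 for Slco2a1, −0.41 to 0.24 for Abcc4 and −0.022 to 0.21 for Zadh2, whose difference of effects ran from −0.062 to 0.70. Within WT they were −1.44 to 0.068 for Slco2a1, −0.50 to 0.91 for Ptgr1 and −0.70 to 0.087 for Cbr1. Within KO they were −0.41 to 0.11 for Ptgr2 and −0.19 to 0.55 for Cbr1, and over both genotypes −0.68 to 0.13 for Ptgr1 and −0.22 to 0.18 for Cbr1. Of 1155 single-gene alternatives, 1056 kept direction and call, 52 lost a call (all list genes), 10 gained one and 37 turned, none past the threshold. The planned edgeR test was not run, and Ptgr1 has no value with the filter at 50. Depth limits Hpgd in Tconv and Ptgr1 throughout, where most libraries hold few reads or none.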
